A study of Mus musculus with 12 samples.

Results

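The genes described here carry the type I interferon signal from the cell surface to the nucleus: the receptor chains Ifnar1 and Ifnar2, the receptor kinases Jak1 and Tyk2, the transcription factor subunits Stat2 and Irf9, and the interferon regulatory factors Irf1, Irf3 and Irf7. They were listed by symbol with earlier results of the same libraries known. Members were then chosen by the presence of a row in the table of expression values, which the authors limited to genes with at least 1 CPM (a gene's reads scaled to a common library size) in all samples. Of the 9 listed genes, 8 were measured among 12591 genes, and Irf7 was not analysed here. Because the list was drawn up with results in view, the counts of genes called below are descriptions, to be read beside the share of all genes called.

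The cells were embryonic fibroblasts of mice heterozygous for the PER2::LUC knock-in, strain C57 PER2::LUC, in which luciferase is fused to the endogenous clock protein PER2. Confluent, contact-inhibited cells were kept for 24 h in medium with 3.3 mM HCl alone (CTL), or with 3.3 mM HCl and 10 µM Deazaneplanocin A (DZ), 1 mM adenine, or 1 mM S-adenosylmethionine (SAM). Polyadenylated RNA from 3 dishes per group was sequenced, 12 libraries in all. The study asked whether excess SAM acts on cells as its catabolite adenine and the AHCY inhibitor DZ do, AHCY being the enzyme that removes S-adenosylhomocysteine, the inhibitory product of methylation reactions. No source states that the dishes came from separate cell preparations, so the p-values measure the spread between dishes.

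Type I interferons bind a receptor made of IFNAR1 and IFNAR2, which activates the kinases TYK2 and JAK1. These phosphorylate STAT proteins, and STAT2, a further STAT protein and IRF9 together form the ISGF3 complex, which binds the interferon-stimulated response element (ISRE) of target genes. IRF3 and IRF7 act upstream, turning on interferon genes after sensors of foreign nucleic acids have been triggered, whereas IRF1 is itself induced by interferon gamma through the gamma-activated sequence (GAS). This system can raise the RNA of many antiviral genes and of its own components Stat2 and Irf9. Its activity at the protein level was not measured in these libraries.

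Each library held between 45649534 and 56789090 reads on the listed genes, and the measured members had between 1114 and 9526 reads per library. SAM replicate 3 stood apart from the other SAM replicates, where a chi-square test of the reads over genes gave 19.1 and 15.7 per degree of freedom, against 4.76 to 7.07 in every other pair of dishes of a group. Of 15 fibroblast markers, 12 had a row (not Dcn, Lum or Fap), and their summed level was 24646 to 25181 CPM in CTL, 30919 to 31721 in DZ, 30404 to 32755 in adenine, and 20204 to 21770 in SAM. Against CTL, 10 of the 12 were called higher and 1 lower in DZ, 9 and 1 in adenine, and 9 and 2 in SAM. Among all genes the shares were 22.6% and 23.4%, 30.6% and 31.0%, and 33.7% and 35.7%. The median log2 fold change of the 12 was 0.30, 0.73 and 0.41, so the lower sum in SAM does not describe most of these markers. Of 16 leukocyte markers Cd68 alone had a row, and of 7 epithelial and 6 endothelial markers 0 had one. In such bulk samples, fewer cells of a type and less RNA per cell cannot be told apart. Scaling by plain read totals in place of the authors' factors shifted all genes, with a median log2 fold change that went from -0.02 to 0.11 in SAM against CTL, and fold changes are to be read relative to that shift. With it, the share of called genes that were higher went from 48.5% to 61.2% in SAM against CTL, from 48.6% to 63.2% in SAM against adenine, and from 50.7% to 40.8% in DZ against SAM.

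Under DZ, 4 of the 8 genes were higher and 0 were lower than in CTL, Stat2 and Irf9 by the most. Among all genes 22.6% were called higher and 23.4% lower in this comparison, with limma at a Benjamini-Hochberg adjusted p below 0.01. Under adenine, 3 of the 8 genes (Irf1, Irf3 and Ifnar1) were higher and 3 (Irf9, Stat2 and Jak1) were lower, beside 30.6% and 31.0% of all genes. Under SAM, 6 of the 8 genes were higher and 2 (Irf9 and Jak1) were lower, beside 33.7% and 35.7% of all genes. Taken without sign, the log2 fold changes of the 8 genes had a median of 0.24 in DZ, 0.20 in adenine and 0.27 in SAM, beside 0.18, 0.27 and 0.34 over all genes.

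**Figure D1:**
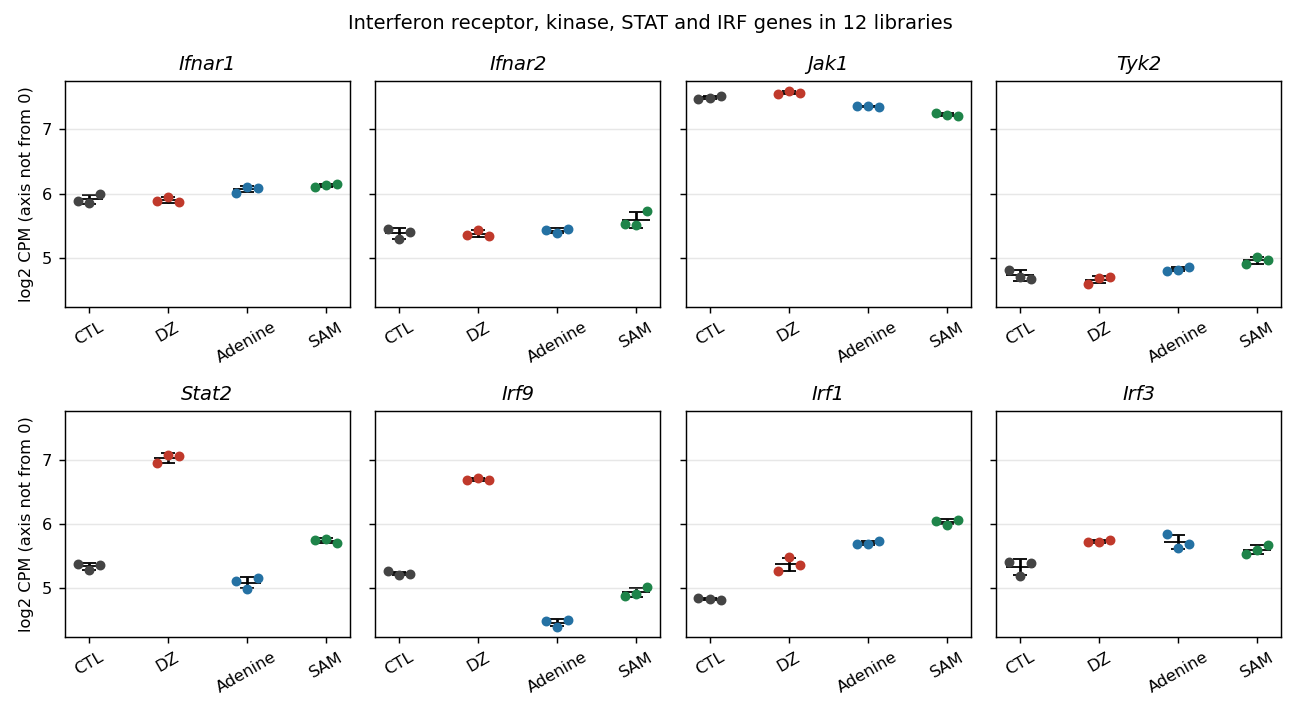
Level of the 8 measured genes in each of 12 libraries, as log2 CPM on a shared vertical axis that does not start at 0. Each point is 1 dish, and the bars give the mean ± SD of 3 dishes per group. Stat2 and Irf9 were highest in DZ (6.94 to 7.07 and 6.67 to 6.72) and lowest in adenine, whereas Irf1 was lowest in CTL and highest in SAM.

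**Figure D2:**
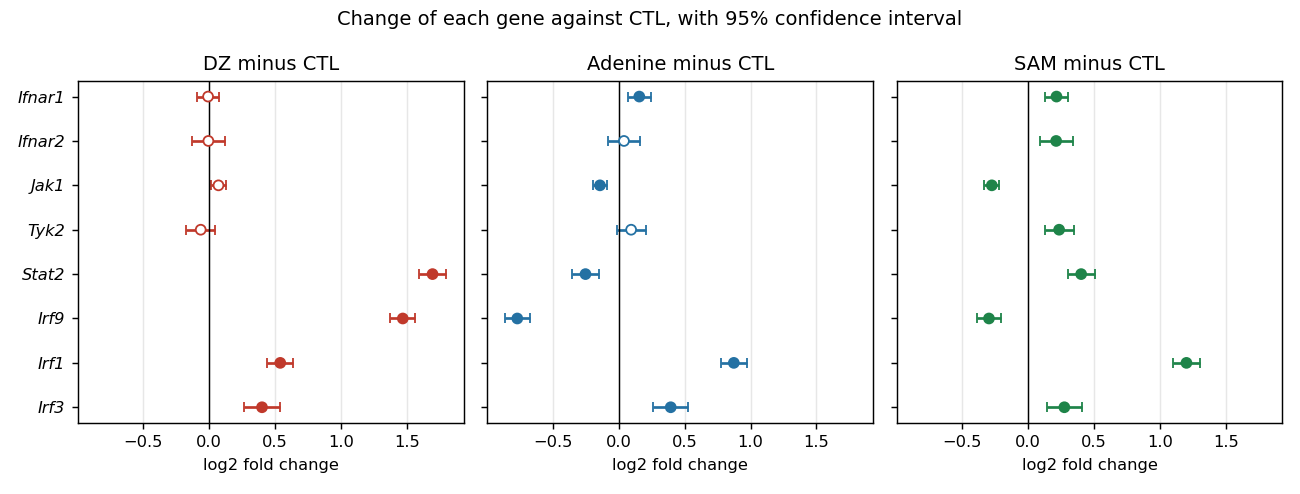
Log2 fold change of each gene in DZ, adenine and SAM against CTL, with the 95% confidence interval from limma as bars. Filled points passed an adjusted p of 0.01 and open points did not. Stat2 and Irf9 lie at 1.69 and 1.47 in DZ, and among the receptor and kinase genes the change farthest from 0 is that of Jak1 in SAM, at -0.27.

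The receptor chains differed little between groups. Ifnar1 (chromosome 16, 91281942 to 91305789, GRCm39, forward strand), the chain that binds TYK2, had log2 CPM of 5.88, 5.86 and 5.99 in CTL and 5.88, 5.95 and 5.87 in DZ. It had 6.01, 6.10 and 6.09 in adenine and 6.10, 6.13 and 6.15 in SAM. The CTL and DZ libraries overlapped and the adenine and SAM libraries lay above both, without overlap between adenine and CTL. The log2 fold change against CTL was -0.01 ± 0.04 (SE) in DZ, with a 95% interval of -0.09 to 0.08, which bounds any change. It rose by 0.16 ± 0.04 in adenine (adjusted p = 0.00279) and by 0.22 ± 0.04 in SAM (adjusted p = 0.000172). The call in adenine did not hold in several alternatives, as the adjusted p was 0.0144 without CTL replicate 1, 0.0166 without CTL replicate 2, 0.0151 without adenine replicate 2 and 0.0128 without adenine replicate 3, and 0.0267 when each library was centred on its median gene.

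Ifnar2 (chromosome 16, 91169618 to 91202723, forward strand) encodes the chain that binds JAK1. It had log2 CPM of 5.45, 5.29 and 5.40 in CTL, 5.35, 5.43 and 5.33 in DZ, and 5.43, 5.38 and 5.45 in adenine. These 3 groups overlapped, and only the SAM libraries, at 5.53, 5.51 and 5.74, lay above CTL. The log2 fold change was -0.01 (95% interval -0.13 to 0.12) in DZ and 0.04 (-0.08 to 0.17) in adenine. In SAM it was 0.21 ± 0.06 (SE, adjusted p = 0.00366), and SAM replicate 3, the library that stood apart, was the highest. Without that library the log2 fold change was 0.14 (adjusted p = 0.0174), and without CTL replicate 2 it was 0.17 (adjusted p = 0.0233). The call was also lost with median centring (0.17, adjusted p = 0.0123) and in a fit of only the CTL and SAM libraries (adjusted p = 0.0136). The difference between Ifnar1 and Ifnar2 within a library is not altered by a scaling factor common to all genes of that library. On the log2 CPM scale it averaged 0.53 in CTL, 0.53 in DZ, 0.65 in adenine and 0.53 in SAM. Every treatment overlapped with CTL in this difference.

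The kinase genes moved in opposite directions under SAM. Jak1 (chromosome 4, 101008838 to 101122487, reverse strand), which encodes the kinase bound to IFNAR2 and many other cytokine receptors, had log2 CPM of 7.48, 7.49 and 7.53 in CTL and 7.55, 7.59 and 7.57 in DZ. It had 7.36, 7.37 and 7.35 in adenine and 7.25, 7.22 and 7.20 in SAM. No groups overlapped, and the order from lowest to highest was SAM, adenine, CTL, DZ. Jak1 fell by 0.14 in adenine (SE 0.03, adjusted p = 2e-04) and by 0.27 in SAM (SE 0.03, adjusted p = 1.28e-07). Its log2 fold change of 0.07 in DZ did not pass (adjusted p = 0.0318), although it did with plain read totals (0.10, adjusted p = 0.00471) and with quantile normalization (0.09, adjusted p = 0.00797). The fall in adenine did not pass with plain read totals (-0.08, adjusted p = 0.0118).

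Tyk2 (chromosome 9, 21015363 to 21042689, reverse strand), which encodes the kinase bound to IFNAR1, had log2 CPM of 4.81, 4.70 and 4.66 in CTL, 4.59, 4.68 and 4.70 in DZ, and 4.79, 4.81 and 4.85 in adenine. CTL overlapped with both DZ and adenine, and the SAM libraries, at 4.90, 5.01 and 4.97, lay above all others. The log2 fold change was -0.06 in DZ (95% interval -0.17 to 0.05) and 0.10 in adenine (-0.02 to 0.21), and it was 0.24 ± 0.05 (SE) in SAM (adjusted p = 0.000671). The difference Jak1 minus Tyk2 within a library averaged 2.78 ± 0.10 (SD, n = 3) log2 CPM in CTL, 2.91 ± 0.04 in DZ, 2.54 ± 0.04 in adenine and 2.27 ± 0.07 in SAM. Every adenine and SAM library lay below every CTL library on this measure, and every DZ library above, the nearest by a narrow margin (2.871 in DZ against 2.867 in CTL).

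Stat2 (chromosome 10, 128106352 to 128128735, forward strand), which encodes the STAT subunit particular to type I and type III interferon signals, had the largest rise of the 8 genes under DZ. Its log2 CPM was 5.37, 5.28 and 5.35 in CTL and 6.94, 7.07 and 7.06 in DZ. It was 5.11, 4.99 and 5.15 in adenine and 5.75, 5.77 and 5.69 in SAM. The groups were apart in the order adenine, CTL, SAM, DZ, with no overlap between neighbours. In CPM the means were 40.3 ± 1.4 (SD, n = 3) in CTL, 130.5 ± 6.4 in DZ, 33.9 ± 1.9 in adenine and 53.3 ± 1.4 in SAM. Stat2 rose 3.23-fold in DZ (log2 fold change 1.69 ± 0.05 SE, adjusted p = 1.18e-12), and 44 of the 12591 genes had a larger log2 fold change. It fell by 0.25 in adenine (SE 0.05, adjusted p = 0.000237) and rose by 0.40 in SAM (SE 0.05, adjusted p = 1.46e-06), so the direction differed between the latter treatments, which were given at the same concentration and time.

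Irf9 (chromosome 14, 55841028 to 55847812, forward strand), which encodes the DNA-binding subunit of ISGF3, had log2 CPM of 5.26, 5.20 and 5.21 in CTL and 6.68, 6.72 and 6.67 in DZ. It had 4.48, 4.39 and 4.49 in adenine and 4.88, 4.90 and 5.01 in SAM. Its order was adenine, SAM, CTL, DZ, again with no overlap. Irf9 rose 2.77-fold in DZ (log2 fold change 1.47 ± 0.04 SE, adjusted p = 2.09e-12), where 68 genes had a larger log2 fold change. It fell by 0.77 in adenine (SE 0.04, adjusted p = 3.27e-10), to 0.587 of the CTL level, and by 0.30 in SAM (SE 0.04, adjusted p = 1.61e-05). Irf9 thus went below CTL in SAM where Stat2 went above it. Rnf31, a ubiquitin ligase gene that overlaps Irf9 on the same strand, had log2 fold changes of 0.25 in DZ (adjusted p = 0.00802), -0.19 in adenine (adjusted p = 0.0302) and 0.12 in SAM (adjusted p = 0.152), and how reads were shared between the genes was not tested.

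The difference Stat2 minus Irf9 within a library was 0.12, 0.07 and 0.14 log2 CPM in CTL and 0.26, 0.35 and 0.39 in DZ. It was 0.63, 0.60 and 0.65 in adenine and 0.87, 0.87 and 0.69 in SAM. All 9 treated libraries were above all CTL libraries, and adenine and SAM were above DZ, so that Irf9 was lower relative to Stat2 in every treatment. SAM replicate 3 was the lowest of its group and still lay above the adenine libraries.

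Irf1 (chromosome 11, 53660812 to 53669200, forward strand), which encodes a factor that activates antiviral and antigen presentation genes, followed another order. Its log2 CPM was 4.84, 4.83 and 4.82 in CTL and 5.27, 5.48 and 5.36 in DZ. It was 5.69, 5.69 and 5.73 in adenine and 6.04, 5.99 and 6.06 in SAM. The order was CTL, DZ, adenine, SAM, with no overlap. Irf1 rose by 0.54 in DZ (SE 0.05, adjusted p = 1.68e-07), by 0.87 in adenine (SE 0.05, adjusted p = 1.58e-10) and by 1.20 in SAM (SE 0.05, adjusted p = 2.35e-12), a 2.30-fold rise in the last. In SAM, 727 of the 12591 genes had a larger log2 fold change. The leukocyte marker Cd68, a lysosomal protein gene of macrophages that fibroblasts can express, stood at 3.03 to 4.0 CPM in CTL and 2.73 to 3.78 in DZ, and at 10.8 to 12.3 in adenine and 15.6 to 17.7 in SAM. Cd68 was thus higher in the treatments with the higher Irf1, the other 15 leukocyte markers had no row, and its part in the result was not tested.

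The difference Irf1 minus Irf9 within a library was -0.42, -0.38 and -0.40 log2 CPM in CTL and -1.42, -1.24 and -1.32 in DZ, but 1.20, 1.29 and 1.24 in adenine and 1.16, 1.09 and 1.05 in SAM. The sign was negative in all CTL and DZ libraries and positive in all adenine and SAM libraries.

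**Figure D3:**
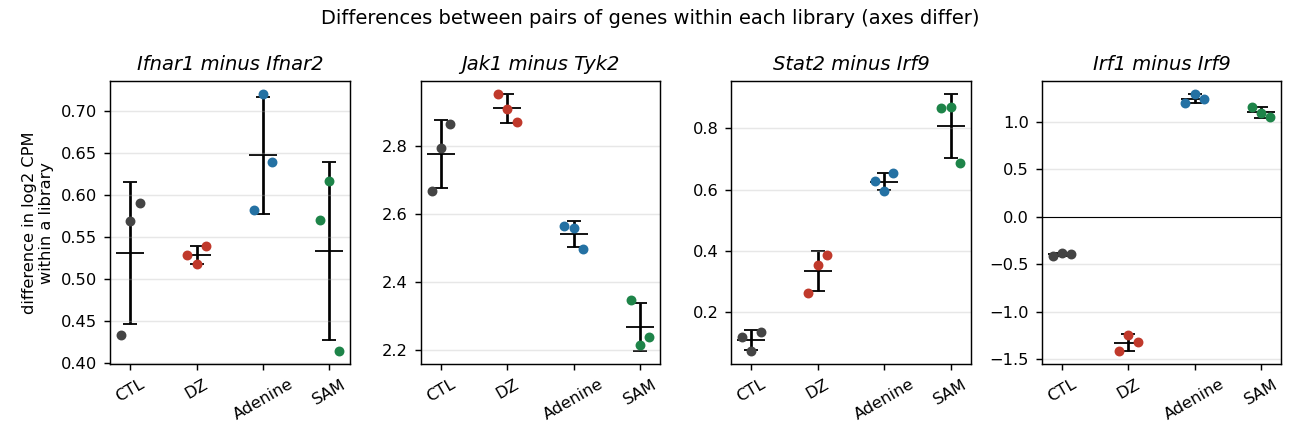
Difference in log2 CPM between pairs of genes within each library, by group, with the mean ± SD of 3 dishes as bars and a separate vertical axis for each pair. Ifnar1 minus Ifnar2 overlaps between each treatment and CTL. Stat2 minus Irf9 rises from a mean of 0.11 in CTL to 0.81 in SAM, and Irf1 minus Irf9 is below 0 in CTL and DZ and above 0 in adenine and SAM.

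Irf3 (chromosome 7, 44647033 to 44652272, forward strand), which encodes the factor activated by the kinase TBK1, had log2 CPM of 5.40, 5.18 and 5.38 in CTL and 5.72, 5.71 and 5.74 in DZ. It had 5.84, 5.62 and 5.68 in adenine and 5.53, 5.60 and 5.66 in SAM. The CTL libraries were lowest, and the adenine libraries overlapped with both DZ and SAM. Irf3 rose by 0.40 in DZ (SE 0.06, adjusted p = 6e-05), by 0.40 in adenine (SE 0.06, adjusted p = 3.67e-05) and by 0.28 in SAM (SE 0.06, adjusted p = 0.000859). Scaf1 and Bcl2l12, which overlap Irf3 on the opposite strand, had log2 fold changes of -0.28 and -0.18 in DZ, 0.14 and 0.58 in adenine, and 0.24 and 0.44 in SAM. The library kit keeps the strand, but whether the counting used it is not given in the sources used here, so reads of these genes and Irf3 may not be fully apart.

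The promoters of Stat2 and Irf1 are shown because these genes changed by a log2 value of at least 1 against CTL and each holds 1 of the motifs searched. RefSeq windows of 300 bases around each gene start (GRCm38.p6), from -250 on, were placed in GRCm39 by exact match. All 8 measured genes matched, with 10 windows. The ISRE core was searched as GAAANNGAAA on both strands and the GAS core as TTCNNNGAA, which reads the same on both, with the start base counted as 0. Shown are the bases from -250 to -51 on the forward strand, chr10:128106117-128106316 for Stat2 and chr11:53660591-53660790 for Irf1, with the motif in capitals.
Stat2: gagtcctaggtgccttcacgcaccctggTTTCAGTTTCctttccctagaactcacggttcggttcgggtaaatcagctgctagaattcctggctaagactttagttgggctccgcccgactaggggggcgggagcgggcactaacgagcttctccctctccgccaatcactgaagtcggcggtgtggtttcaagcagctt
Irf1: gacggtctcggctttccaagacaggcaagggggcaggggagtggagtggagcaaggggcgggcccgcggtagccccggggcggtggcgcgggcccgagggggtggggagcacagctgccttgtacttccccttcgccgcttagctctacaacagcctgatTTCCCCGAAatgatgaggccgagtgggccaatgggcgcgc
In Stat2 the capitals mark an ISRE core read on the reverse strand, from -222 to -213. In Irf1 they mark a GAS core from -90 to -82. The 2 windows of Irf9, the other gene with a change of that size, held neither motif. They begin at 55841192 and 55841786, inside the annotated gene, which starts at 55841028, so the bases upstream of the gene were not searched. The bases before the canonical start of Irf9 are exonic in a longer annotated transcript and are not shown.

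Of the remaining windows, Ifnar2 held a GAS core from -214 to -206 and Ifnar1 a GAS core from -5 to 3, with no overlap between motifs. Those of Irf3, Jak1 and Tyk2 held neither. Positions count from the start used for each window. For Ifnar1 that start lies 161 bases downstream of the canonical GENCODE start, so its GAS core is inside the annotated gene. For Tyk2, Jak1, Irf3 and Stat2 the window start lies 118, 67, 39 and 15 bases downstream of the canonical start. The ISRE core was found in 3.44% of 32851 windows of the same length over the genome, in 2.99% of 11287 windows of genes in the table, and in 38.6% of 57 windows of the interferon-stimulated target genes described below. The GAS core was found in 8.3%, 6.73% and 15.8% of them. The 57 windows cover 44 of the 54 target genes with a row, some with more than 1 window, and 20 of the 44 held the ISRE core. A match of this kind describes the letters in the window, and no match says nothing of binding elsewhere.

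Levels of different genes were compared per length, as log2 CPM per kb of the canonical transcript. In CTL, Jak1 was highest at 5.0, followed by Irf3 at 4.27, Ifnar1 at 3.88, Irf9 at 3.75, Irf1 at 3.73, Ifnar2 at 3.66, Stat2 at 3.16 and Tyk2 at 2.42. The libraries of Irf9 and Irf1 overlapped, and so did those of Irf1 and Ifnar2 (3.72 to 3.74 and 3.57 to 3.73). In DZ, Irf9 was the highest of the 8 at 5.21, above Jak1 at 5.07 and Stat2 at 4.86, without overlap. In SAM, Irf1 was highest at 4.93, above Jak1 at 4.73 and Irf3 at 4.55, again without overlap. In adenine, Jak1 at 4.86 stayed highest, with Irf3 at 4.67 and Irf1 at 4.61 overlapping. Tyk2 was the lowest in all 4 groups, and Irf9 stood at rank 6 in adenine and rank 7 in SAM, where its libraries overlapped with those of Stat2 in both groups.

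SAM and adenine were given at the same concentration and for the same time and can be compared directly. Of the 8 genes, 3 were higher in SAM (Stat2, Irf9 and Irf1) and Jak1 was lower, beside 20.8% of all genes called higher and 22.0% lower. Stat2 was higher in SAM than in adenine by 0.65 ± 0.05 (SE, adjusted p = 3.14e-08), Irf9 by 0.47 ± 0.04 (adjusted p = 4.06e-07) and Irf1 by 0.33 ± 0.05 (adjusted p = 3.29e-05). Jak1 was lower, with a difference of -0.13 ± 0.03 (adjusted p = 0.000582), although this did not pass with plain read totals (-0.07, adjusted p = 0.0236). For Irf3 the difference was -0.12 (95% interval -0.25 to 0.01) and for Ifnar1 0.06 (-0.03 to 0.15). For Ifnar2 and Tyk2 it was 0.17 (0.05 to 0.30, adjusted p = 0.0207) and 0.14 (0.03 to 0.25, adjusted p = 0.0311), neither below 0.01, although both passed with plain read totals (0.23, adjusted p = 0.00376, and 0.20, adjusted p = 0.00424).

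DZ was given at another concentration, and its differences from adenine and SAM are stated as such. Against adenine, Stat2, Irf9 and Jak1 were higher in DZ and Irf1 and Ifnar1 were lower, beside 32.1% and 32.2% of all genes. The largest of these differences was that of Irf9, at 2.24 ± 0.04 (SE), a 4.71-fold difference, and that of Stat2 was 1.94 ± 0.05. The difference of Irf3 was 0.01 (95% interval -0.13 to 0.14). The call of Ifnar1 (-0.17, adjusted p = 0.00184) did not hold without DZ replicate 3 (adjusted p = 0.0102) or without adenine replicate 2 (adjusted p = 0.0107). Against SAM, Stat2, Irf9 and Jak1 were higher in DZ and Irf1, Ifnar1, Ifnar2 and Tyk2 were lower, beside 35.0% and 34.0% of all genes. Stat2 was higher in DZ than in SAM by 1.29 ± 0.05 and Irf9 by 1.76 ± 0.04, while Irf1 was lower, at -0.66 ± 0.05. The lower Ifnar2 in DZ (-0.22, adjusted p = 0.00306) did not hold without DZ replicate 1 (adjusted p = 0.0119), DZ replicate 3 (adjusted p = 0.0152) or SAM replicate 3 (-0.15, adjusted p = 0.0141).

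Interferon-stimulated genes, the targets of ISGF3 and of IRF1, were followed in a list of 79 names, of which 54 had a row. Like the members, this list and those below were written with results of these libraries known. In DZ, 53 of the 54 were higher and 0 were lower, beside 22.6% and 23.4% of all genes, with a median log2 fold change of 1.54 beside -0.01 over all genes. Isg20, which encodes a nuclease, was the exception, at -0.09 (95% interval -0.19 to 0.01). The count of 53 was the same when any 1 library was left out and under the 3 other scalings. The rises of Stat2 and Irf9 lay in the middle of this list, with 23 targets above Stat2 and 28 above Irf9.

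In adenine, 9 of the 54 targets were higher and 25 were lower, beside 30.6% and 31.0% of all genes, with a median of -0.15. A target under 1 CPM in any sample had no row, so falls below that limit are missing from the adenine and SAM counts. Some targets lay near it in adenine, such as Ifi44 at a mean of 0.80 log2 CPM and Nlrc5 at 0.76. In SAM, 21 were higher and 11 were lower, beside 33.7% and 35.7% of all genes, with a median of 0.13. With other scalings the counts in SAM ran from 19 to 29 higher and from 8 to 13 lower, and without SAM replicate 3 they were 19 and 11. SAM exceeded adenine in 38 of the 54 targets and was lower in 2, beside 20.8% and 22.0% of all genes. Irf9 had a fold change below that of 44 of the 54 targets in adenine and of 44 in SAM, and Stat2 below that of 31 and of 20.

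Ifit1, which encodes an antiviral protein that binds viral RNA, lay at 4.36 to 4.55 log2 CPM in CTL, 7.72 to 7.85 in DZ, 2.40 to 2.57 in adenine and 2.89 to 3.15 in SAM. Its order of groups was that of Irf9, with log2 fold changes of 3.35, -1.99 and -1.46. Slfn9, a gene of the Schlafen family, and Tapbp, which encodes the peptide-loading chaperone tapasin, followed the order of Irf1. Slfn9 rose by 0.93 in DZ, 1.79 in adenine and 2.15 in SAM, and Tapbp by 0.53, 0.71 and 1.03. The ends of the range, named after their values were seen, were Isg15, a ubiquitin-like modifier gene, at 3.61 in DZ, and Ifi44 at -3.20 in adenine and -2.42 in SAM. The targets thus did not share 1 order of groups.

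**Figure D4:**
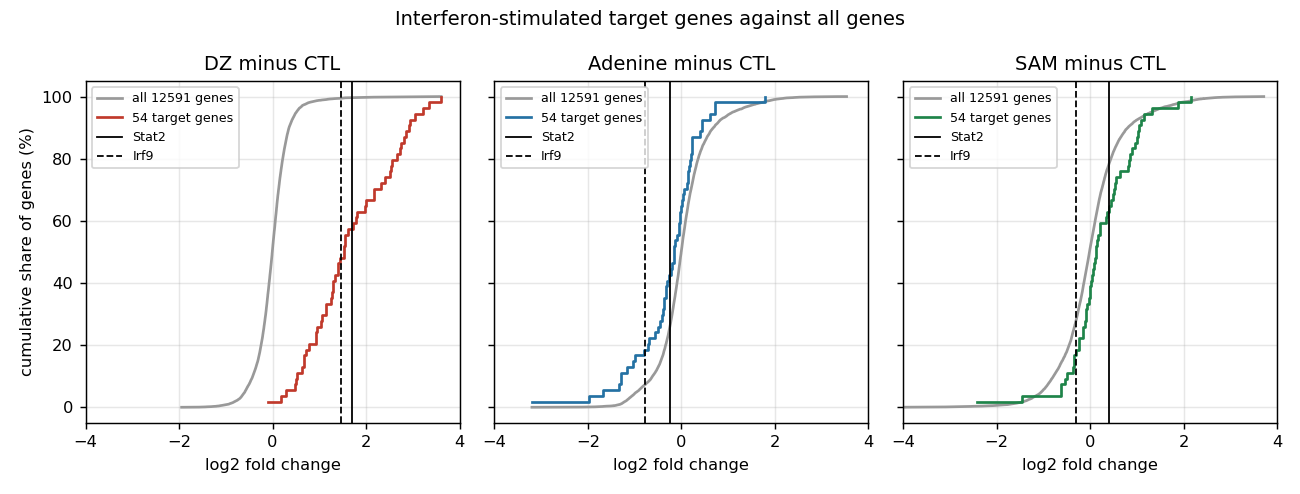
Cumulative share, in percent, of 54 interferon-stimulated target genes (coloured) and of all 12591 genes (grey) against log2 fold change in DZ, adenine and SAM against CTL, with Stat2 (solid line) and Irf9 (dashed line) marked. The target curve has a median of 1.54 in DZ, -0.15 in adenine and 0.13 in SAM.

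Other layers of the pathway were followed in further lists. Of 21 interferon ligand genes, 0 had a row among the genes analysed here. Of 4 further receptor genes 3 had a row, and under DZ 0 were called, beside 22.6% and 23.4% of all genes, while Ifngr1 and Ifngr2, which encode the interferon gamma receptor, rose in adenine by 0.46 and 0.33 and in SAM by 0.64 and 0.29. Il10rb, a shared chain of the interferon lambda and interleukin receptors, was not called, at -0.10, 0.02 and 0.08 in DZ, adenine and SAM. Of 7 other STAT and JAK genes 6 had a row, with 1 higher and 1 lower in DZ, 2 and 3 in adenine, and 4 and 2 in SAM, beside the 22.6% and 23.4%, 30.6% and 31.0%, and 33.7% and 35.7% of all genes. Stat5a, a mediator of growth hormone and cytokine signals, fell by 0.19 in DZ and rose by 0.38 in adenine and 0.51 in SAM. Stat3, the main target of interleukin 6 signals, was at -0.04 in DZ (adjusted p = 0.239) and fell by 0.29 in adenine and 0.34 in SAM. Jak2, the kinase of the interferon gamma receptor, was at 0.04 in DZ (adjusted p = 0.442) and fell by 0.20 and 0.37.

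Of 8 other IRF genes, which include the IRF2-binding proteins, 5 had a row, with 1 higher and 1 lower in DZ (22.6% and 23.4% of all genes), 2 and 1 in adenine (30.6% and 31.0%), and 3 and 1 in SAM (33.7% and 35.7%). Irf2bp1, a co-repressor gene, rose by 0.27, 0.26 and 0.45 in DZ, adenine and SAM, and its relative Irf2bpl fell by 0.19, 0.23 and 0.46. The call of Irf2bpl in DZ did not hold without CTL replicate 1 (adjusted p = 0.0172) or DZ replicate 3 (adjusted p = 0.0185). Irf5, a factor active mainly in myeloid cells, rose in SAM by 0.71 (adjusted p = 0.000694) from a low level of 1.06 to 1.58 log2 CPM in CTL. Of 17 negative regulators 15 had a row, with 1 higher and 5 lower in DZ, 4 and 3 in adenine, and 5 and 4 in SAM, beside the same shares of all genes. Socs2, a feedback inhibitor of cytokine receptors, was at 0.09 in DZ (adjusted p = 0.411) and fell by 0.56 in adenine and 1.33 in SAM. Pias3, an inhibitor of STAT proteins, fell by 0.47 in DZ, was at 0.04 in adenine (adjusted p = 0.394) and rose by 0.21 in SAM. Ptpn1, a phosphatase of JAK2 and TYK2, was at -0.06 in DZ (adjusted p = 0.145) and rose by 0.26 and 0.38.

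Of 14 kinases and adaptors that activate IRF3 and IRF7, 12 had a row, with 4 higher and 4 lower in DZ, 3 and 4 in adenine, and 4 and 4 in SAM, beside 22.6% and 23.4%, 30.6% and 31.0%, and 33.7% and 35.7% of all genes. Myd88, the adaptor of most Toll-like receptors, rose by 0.29 in DZ and fell by 0.70 in adenine and 0.66 in SAM. Ticam1, the adaptor of TLR3, fell by 0.26, 0.42 and 0.83 in DZ, adenine and SAM, of which the call in DZ did not hold without DZ replicate 3 (adjusted p = 0.0112). Irak4, a kinase downstream of MYD88, was at -0.14 in DZ (adjusted p = 0.078) and fell by 0.55 in adenine and 0.70 in SAM.

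The genes most like a member were sought for the 3 genes that changed by a log2 value of at least 1, by the root mean square difference over 12 libraries after each gene was centred on its CTL mean. Nearest to Stat2 were Gvin-ps5 (0.13), Gvin2 (0.17) and Gvin-ps3 (0.17), of a family of large interferon-inducible GTPases and its pseudogenes, whose near-identical copies may share reads. Gvin2 was at 1.50 in DZ, -0.23 in adenine and 0.59 in SAM, beside 1.69, -0.25 and 0.40 for Stat2. The call of Gvin2 in adenine (adjusted p = 0.00585) did not hold without CTL replicate 1 (adjusted p = 0.0181) or CTL replicate 2 (adjusted p = 0.0331). It was also lost without adenine replicate 1 (adjusted p = 0.0271) or adenine replicate 3 (adjusted p = 0.0233). Nearest to Irf9 were Ifih1, the RNA sensor MDA5 (0.19), Bst2, the virus tether tetherin (0.20), and Lgals3bp, a secreted glycoprotein (0.21), all of them also in the target list. Bst2 was at 1.54 in DZ, -1.15 in adenine and -0.25 in SAM, beside 1.47, -0.77 and -0.30 for Irf9. Ifih1 was at 1.53, -0.45 and -0.15, and Lgals3bp at 1.44, -0.42 and -0.08. In SAM neither of these passed (adjusted p = 0.119 for Ifih1 and 0.164 for Lgals3bp), and their libraries overlapped with CTL. Nearest to Irf1 were Hcfc1r1 (0.06), B4galt5, a galactosyltransferase (0.09), and Tmed1 (0.09), of which 0 were in the lists used here. Hcfc1r1 was at 0.56, 0.84 and 1.12, beside 0.54, 0.87 and 1.20 for Irf1.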

How the data were processed

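Total RNA of 12 dishes was poly(A)-selected and sequenced from stranded libraries. The authors used Trimmomatic for trimming, HISAT2 for alignment to GRCm39 with GENCODE vM27 as a guide, and StringTie for quantification, and genes under 1 CPM in any sample were left out. The values deposited by the authors, from edgeR, are log2 CPM on normalized library sizes of 12591 genes. How the scaling factors were made is not given in the sources used here. As deposited, such values do not enter a count model. The depth was recovered by taking off a prior count of 2, which gave whole reads within 0.01 in 100% of the values. The recovered reads could have entered a count model, but none was fitted to them here.

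The log2 values were tested as deposited with limma 3.58.1 in R 4.3.3 (lmFit, contrasts, eBayes with a variance trend) over all 12 libraries, with adjustment over all genes by the Benjamini-Hochberg method and a threshold of 0.01. Intervals are 95% and cover the spread between dishes only. The fit was tested on simulated data. Symbols, positions and transcript lengths are from GENCODE vM39, where 12575 identifiers matched. Members and lists were chosen with earlier results of these data known. Of each pathway list, the 3 genes with the smallest adjusted p against CTL are named. Tables and plots were made with Python 3.11.15, numpy 2.4.6, pandas 2.3.3 and matplotlib 3.10.9. As alternatives, results were recomputed with robust empirical Bayes, no variance trend, a mean of at least 3 log2 CPM, a pseudocount of 1 CPM, plain read totals, median centring, quantile normalization, limma voom on the recovered reads, thresholds of 0.05 and of a log2 fold change of 1, only the libraries compared, a replicate block, and leaving out each library. Counts of targets under these alternatives were added after seeing the data.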

Additional observations from a re-analysis of the deposited data

How the results depend on the processing

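The counts of genes called were within 1.5 times the main count under every alternative except a required log2 fold change of at least 1. That left 2 genes in DZ against CTL, 0 in adenine, 1 in SAM, 0 in SAM against adenine, 2 in DZ against adenine and 2 in DZ against SAM, by construction. When 1 library was left out, the counts ranged from 4 to 4, 5 to 6, 7 to 8, 4 to 4, 4 to 5 and 6 to 7 in the same order. The replicate numbers showed no strong pairing of the dishes. Libraries with the same number deviated from their groups with correlations across genes of -0.142 to 0.181. Libraries with different numbers were not compared, so a weaker pairing cannot be told from none. With a replicate block the counts were 4, 6, 8, 4, 5 and 7 and no call of the 8 genes changed.

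Among the fold changes of the 8 genes and of the other genes named by the fixed rule, 35 values of 14 differences changed sign, and 0 of the 14 passed the threshold as reported. For single genes of the target list outside that rule, signs were not compared. With plain read totals, in DZ against CTL Ifnar1 came to 0.0173, Ifnar2 to 0.0196 and Ifngr2 to 0.0237, in SAM against CTL Lgals3bp came to 0.0448, and in SAM against adenine Ifngr2 came to 0.0187 and Stat3 to 0.0177. In DZ against adenine Irf3 came to -0.031 and Irf2bp1 to -0.0324. With median centring, in adenine against CTL Ifnar2 came to -0.0104, Il10rb to -0.0341 and Pias3 to -0.0105, and with quantile normalization to -0.0019, -0.087 and -0.0178, where Il10rb in SAM against CTL came to -0.0234. When 1 library was left out, the range in DZ against CTL was -0.0331 to 0.0319 for Ifnar1, -0.0497 to 0.0281 for Ifnar2, -0.0329 to 0.0528 for Ifngr1, -0.028 to 0.0262 for Ifngr2 and -0.2579 to 0.0021 for Irf5. In adenine against CTL it was -0.0032 to 0.0746 for Ifnar2 and -0.0488 to 0.0674 for Il10rb, and in DZ against adenine -0.0411 to 0.0692 for Irf3 and -0.0165 to 0.0343 for Irf2bp1. The causes were not tested. Members had at least 1114 reads in each library.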
